A study of Mus musculus with 20 samples.

Results

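The chemokine system of mouse interscapular brown adipose tissue (iBAT) was described here across cell classes. It was taken as 42 genes of the 31053 in the count tables, chosen by symbol and not by their values: 15 CC ligands, 10 CXC, CX3C and C ligands, 13 signalling receptors and 4 atypical receptors. The study asked which stromal and immune cells respond while iBAT is being remodelled by cold or by an adrenergic drug. Single-cell RNA sequencing libraries were made from C57 male mice kept at room temperature (RT, 24 °C), in the cold (COLD, 6 °C for 4 days) or infused with CL316,243, an agonist of the beta-3 adrenergic receptor (CL, 0.75 nmol per hour for 4 days), with 2 experiments per group. A second line of female mice carried floxed Adrb1, the gene of the beta-1 adrenergic receptor, without (WT) or with (KO) the tamoxifen-inducible Pdgfra-CreER driver, which acts in Pdgfra-positive stromal cells. All of these mice received tamoxifen, and there was 1 experiment per genotype at RT and in the cold. Each experiment pooled 3 to 4 mice of 8 to 14 weeks and was split by magnetic beads into a lineage-negative (Lin-) library of stromal and vascular cells and a lineage-positive (Lin+) library of immune cells, which gave 20 libraries in all. A p-value therefore measures the spread between pools. In the Adrb1 line the RT libraries were made with another kit version (3 in place of 2) and on other days than the COLD libraries, so that kit, day and temperature cannot be told apart there.

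Chemokines are small secreted proteins that direct the movement of leukocytes along gradients, and they signal through G protein-coupled receptors carried mostly by immune cells. Groups of ligands share receptors: Ccl2, Ccl7 and Ccl12 call monocytes through Ccr2, Cxcl1 and Cxcl2 call neutrophils through Cxcr2, Cxcl9 and Cxcl10 call activated T and NK lymphocytes through Cxcr3, and Xcl1 calls cross-presenting dendritic cells through Xcr1. The atypical receptors Ackr1 to Ackr4 bind chemokines without the usual signalling and transport or remove them.

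After filtering, 66339 Lin- and 59935 Lin+ cells remained, with 7857161 to 41979839 UMIs (unique molecular identifiers, which count molecules) per library and medians of 1204 to 4358 UMIs per cell. Cells were clustered without the 42 genes and without the genes used for naming, and a class was called "X-like" only where a fixed list of marker genes was raised in it. The second RT Lin- library stood apart, since 72.0% of its barcodes had at least 10% mitochondrial UMIs and 28.0% of them were kept. The Lin+ and Lin- libraries of the second CL experiment shared 1098 barcodes, and 1082 of these were deeper in the Lin- library, so that results were also computed without them. Adrb1 itself, summed over ASC1-like, ASC2-like and ASC3-like cells, stood at 1.76 CPM in WT RT, 2.56 in WT COLD, 0 in KO RT (which allows up to 0.66 CPM) and 0.505 in KO COLD. Levels are given as CPM, the UMIs of a gene in a class and library, scaled to a total of 1000000 UMIs of that class; since reads come from transcript ends, gene length does not enter them. Changes are given as log2 fold changes from edgeR's quasi-likelihood test, called at an adjusted p under 0.05. The standard error beside a change was derived from the log2 fold change and the F statistic of that test.

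Stromal and immune cells held different ligands. Ccl11, an attractant of eosinophils, was a stromal ligand with 2304 CPM in ASC1-like cells (mean of 10 libraries, range 1194 to 4848) and 2342 CPM in a small cluster marked by Sfrp5. ASC1-like, ASC2-like and ASC3-like cells are the Pdgfra-positive adipose stromal cells of the study. Cxcl14, an attractant of monocytes and dendritic cells, reached 1906 CPM in ASC1-like cells, and its mean of 2282 CPM in a Krt14-marked cluster ranged from 0 to 10603 over 8 libraries. Cxcl13, which guides B lymphocytes, was led by ASC2-like cells with 1356 CPM (range 117 to 3048). Cxcl1 reached 1378 CPM in skeletal muscle-like cells and 1000.2, 933, 766 and 754 CPM in the Sfrp5 cluster, a Cilp-marked stromal cluster, ASC1-like and ASC2-like cells, whose ranges overlapped. Cx3cl1, a membrane-bound ligand of patrolling monocytes, was led by arterial endothelial (arterial VEC-like) cells with 83.4 CPM.

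Immune ligands were each concentrated in a few classes. The macrophage attractants Ccl3 and Ccl4 reached 24286 and 36367 CPM in basophil-like cells (4 libraries with at least 20 cells), against 1563 CPM of Ccl3 in neutrophil-like and 2699 CPM of Ccl4 in NK-like cells. NK-like cells led Ccl5, which attracts T lymphocytes, with 14284 CPM, and Xcl1 with 1319.6 CPM. The eosinophil attractant Ccl24 had its highest mean in macrophages of the study's MAC2 type that carry Lyve1 (495 CPM), and Ccl8, a monocyte attractant, did too (2628 CPM, range 462 to 10205). Ccl12 was led by MAC2-like cells that carry Mgl2 (895 CPM). Mature dendritic cells (DEND3-like) led Ccl17 (615 CPM) and Ccl22 (1038 CPM), both ligands of Ccr4, and Cxcl16, the ligand of Cxcr6 (1068 CPM). Cxcl2 was led by neutrophil-like cells (8365 CPM, range 4172 to 14761).

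Several ligands were made on both sides of the sort. Ccl2 ran at 1921 CPM in MAC1-like and 1806 CPM in MAC3-like macrophages, and 1027 CPM in ASC1-like cells, with library ranges of 293 to 5466, 121 to 4778 and 196 to 3132 that overlapped. The means of Ccl7 had the same order, with 1373, 1156 and 724 CPM in the same 3 classes. MAC1-like means leave out the C57 RT libraries, which had too few of these cells. In each COLD and CL library of C57 mice, Ccl2 was higher in MAC3-like than in MAC1-like cells. Cxcl9 was led by ASC1-like cells (609 CPM), and Cxcl10 by MAC3-like cells (625 CPM, range 43.4 to 2796), with 392 CPM in ASC1-like cells. Ccl6 and Ccl9, ligands of Ccr1 in mice, had 7039 and 4702 CPM in basophil-like cells, and among classes found in all 10 experiments 3378 and 1603 CPM in Lyve1 MAC2-like cells. Low ligands were Ccl19, Ccl27a and Cxcl5, whose highest class means were 37.5, 33.9 and 62.1 CPM. Ccl19 and Ccl27a have near-identical copies in the mouse genome, so their counts are uncertain.

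**Figure D1:**
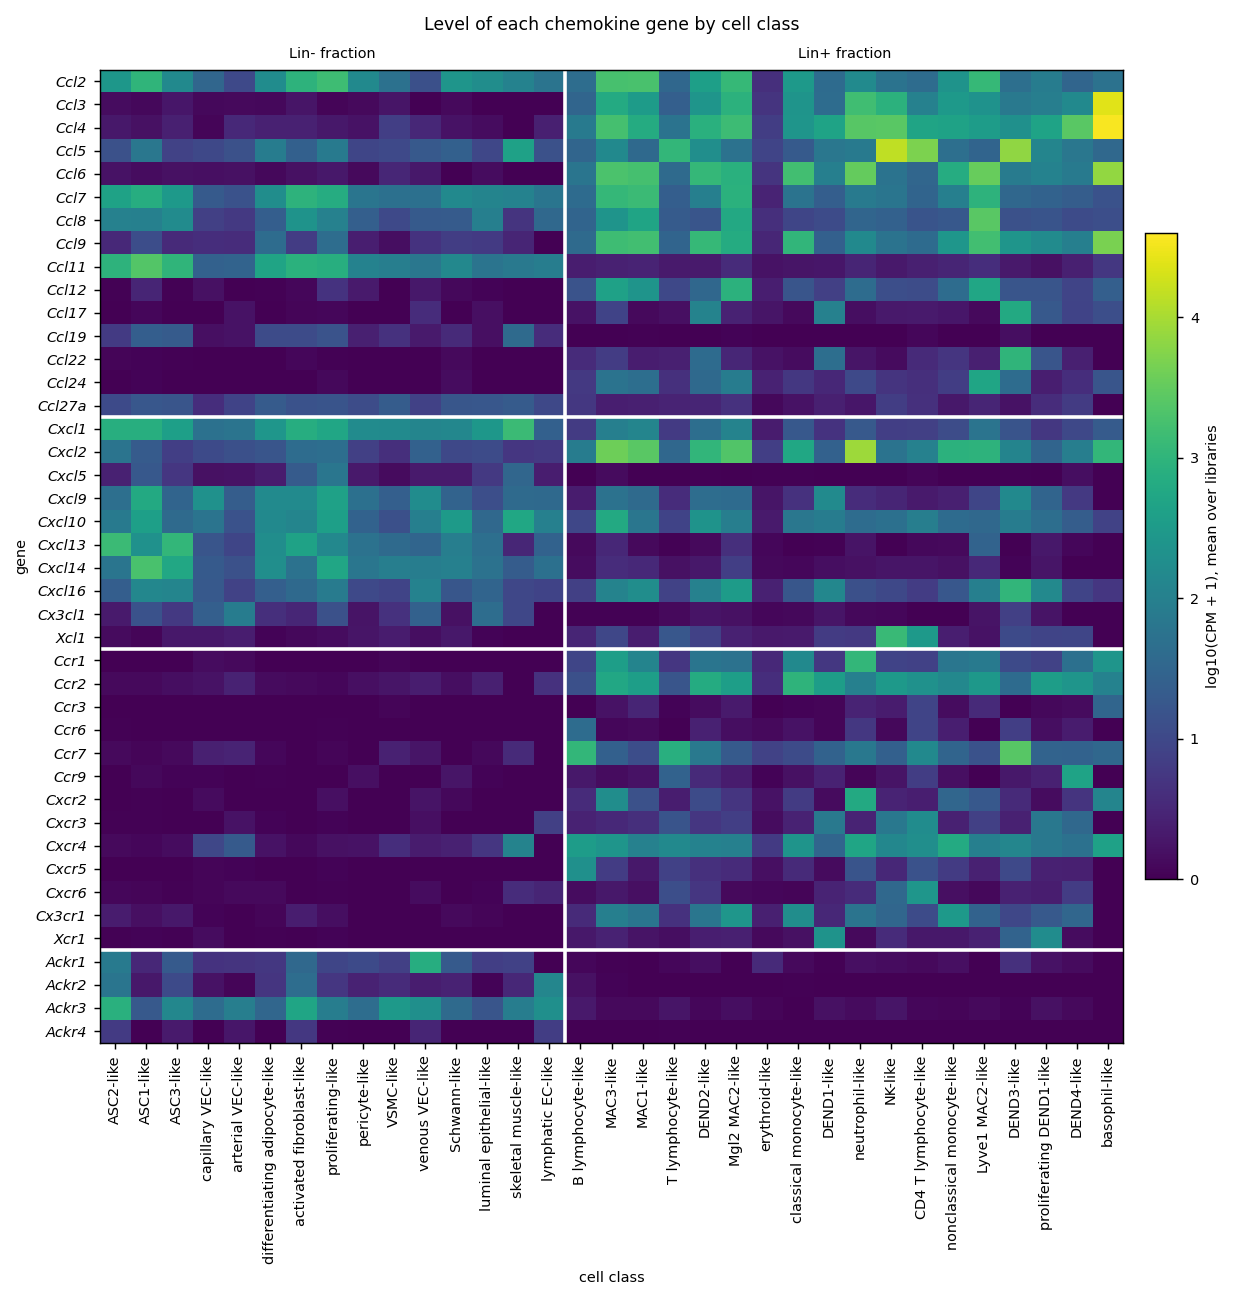
Level of each of the 42 genes (rows, ligands above receptors) in the named cell classes (columns, Lin- left and Lin+ right), as log10 of the mean CPM over libraries plus 1. Signalling receptors other than Cxcr4 lay mostly on the Lin+ side of the picture and atypical receptors on the Lin- side, while ligands filled both.

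Receptors divided between the fractions. Each signalling receptor had its highest mean in an immune class: Ccr2 in classical monocyte-like cells (992 CPM), Ccr1 and Cxcr2 in neutrophil-like cells (1089.8 and 630.0 CPM), Cxcr4 and Cx3cr1 in nonclassical monocyte-like cells (643 and 298 CPM), Ccr7 in DEND3-like cells (2539 CPM), Xcr1 in DEND1-like cells (232 CPM) and Ccr9 in plasmacytoid (DEND4-like) cells (456 CPM). Lymphocyte classes led Cxcr3 (173 CPM, CD4 T), Cxcr5 and Ccr6 (203 and 40.6 CPM, B) and Cxcr6 (436 CPM, a cluster of T, NK and innate lymphoid markers that remained in the Lin- fraction). Ccr3, the eosinophil receptor, was low in every class and highest in basophil-like cells (31 CPM). The atypical receptors marked non-immune cells, with Ackr1, the Duffy receptor, in venous VEC-like cells (742 CPM), Ackr2 in lymphatic EC-like cells (128 CPM), Ackr3, which removes Cxcl12, in ASC2-like cells (843 CPM) and Ackr4 at no more than 21.2 CPM in any class. These levels are a description of clusters of the same cells, with no test.

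After cold, calls were made among ligands and signalling receptors. Across 33 classes, 57 of 523 tested pairs of gene and class were called (36 higher and 21 lower), or 10.9%, against 2.73% of the 214186 pairs over all genes. These calls covered 23 of the 42 genes in 15 classes. By role, CC ligands gave 31 calls in 242 pairs, the other ligands 19 in 161, signalling receptors 7 in 95 (31 at an unadjusted p under 0.05) and atypical receptors 0 in 25 (0 also by DESeq2, and 0 at an unadjusted p under 0.05). After CL, 19 of 512 pairs were called, or 3.71%, against 0.3% over all genes, and all 19 were ligands (edgeR; DESeq2 called 1 signalling receptor, and 19 of their 95 pairs had an unadjusted p under 0.05). Of the 12 higher CL calls, 7 were of Ccl8. At 0.3% over all genes, 0 calls in 95 signalling and 24 atypical receptor pairs do not set the receptors apart. Nor do 0 calls in 25 atypical pairs after cold, at 2.73%. Pairs of 1 gene in several classes come from the same pools and are not independent. A gene entered a test only where its counts reached a minimum in some libraries, so that a gene present in 1 group only could enter through that group. With the experiment number as a block, 92 cold calls and 48 CL calls were made. Leaving out 1 library gave between 24 (without the first COLD library) and 100 (without the first CL library) cold calls, and between 11 (without either RT library) and 97 (without the second CL library) CL calls. All 42 genes were tested in at least 1 class. The 18 without a call in any class and contrast were Ccl4, Ccl11, Ccl19, Ccl27a, Cxcl5, Cxcl16, Ccr3, Ccr6, Ccr7, Ccr9, Cxcr3, Cxcr5, Cxcr6, Xcr1 and the 4 atypical receptors.

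**Figure D2:**
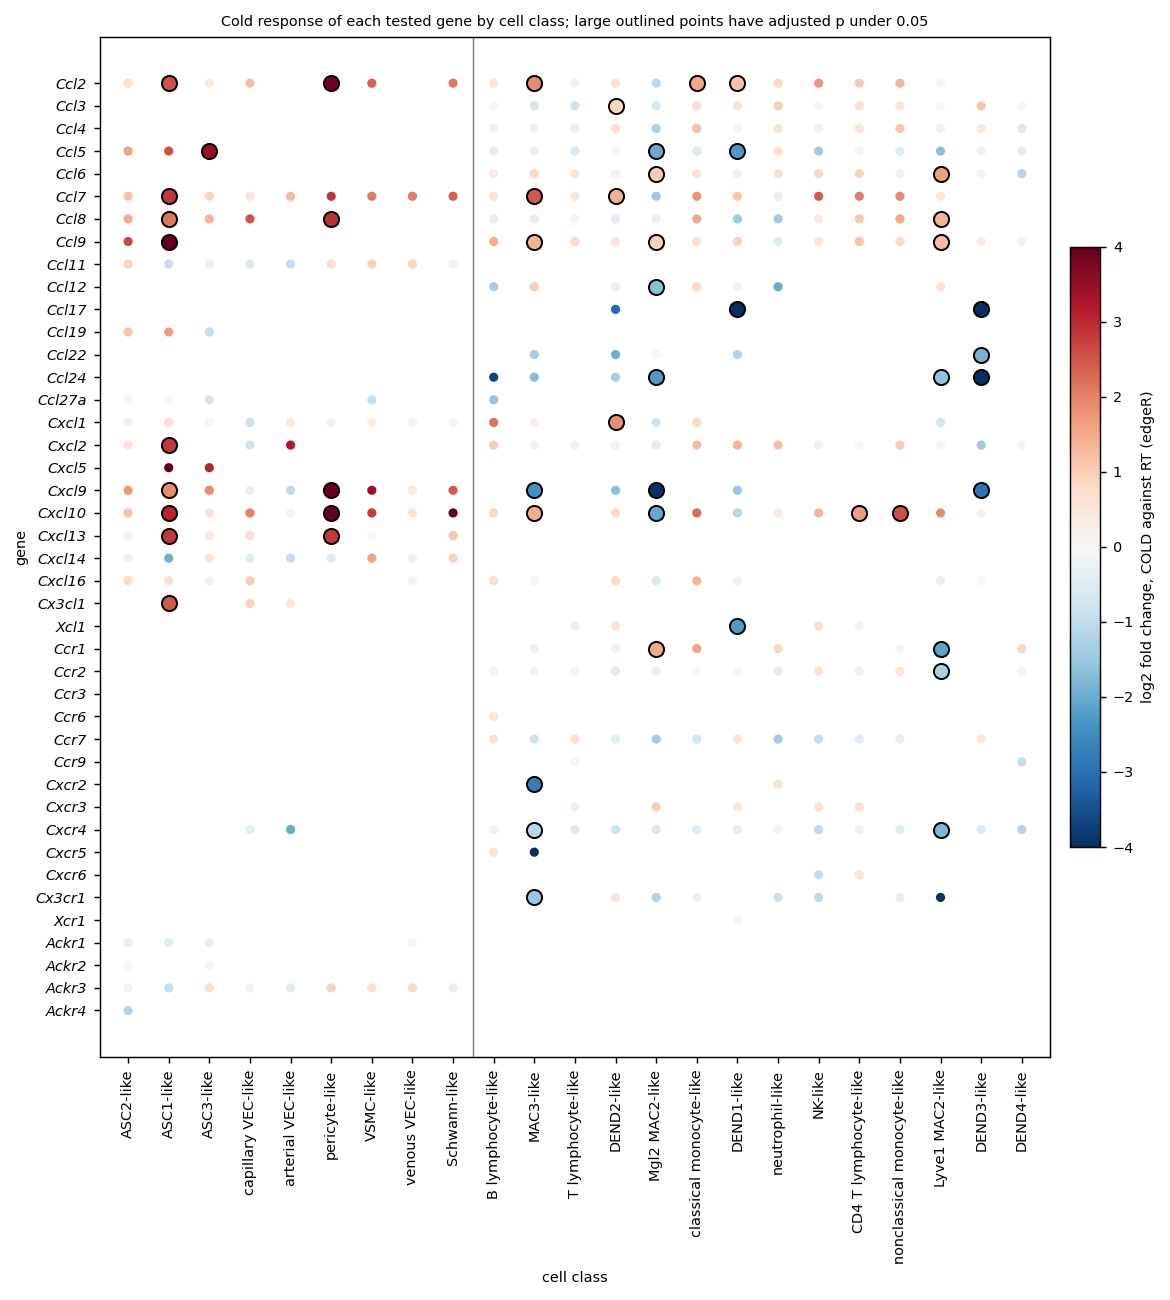
Log2 fold change of COLD against RT (color) for each gene (rows) in each named class with a test (columns, Lin- left of the line and Lin+ right); points are the pairs tested and large outlined points have an adjusted p under 0.05. Calls in ASC1-like cells were all higher after cold, while Mgl2 MAC2-like, Lyve1 MAC2-like and MAC3-like cells held calls in both directions.

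In ASC1-like cells, 9 of 19 tested genes rose after cold and 0 fell, where 11% of all genes were called. The median log2 fold change was 2.14 over the tested members and 0.01 over all genes. Among these were Ccl2 and Ccl7, both ligands of Ccr2. Ccl2 ran at 196 and 302 CPM at RT, 1759 and 836 after cold and 499.6 and 461 after CL. Both COLD pools lay above the other 4 (log2 fold change 2.55 ± 0.53, adjusted p = 0.0202). Ccl7 ran at 166 and 177 CPM at RT, 1417 and 887 after cold and 594 and 389 after CL, with the same order of groups (log2 fold change 2.86 ± 0.50, adjusted p = 0.0107). Ccl8 at 34.7 and 82.2 CPM rose to 134 and 287 CPM (log2 fold change 2.14 ± 0.38, adjusted p = 0.0112), and Ccl9 at 1.50 and 0.5 CPM rose to 20.9 and 21.6 CPM (log2 fold change 4.07 ± 0.66, adjusted p = 0.00746). The RT level of Ccl9 lay near the floor, so the size of its change is uncertain. Ccl9 may have entered the test only through the treated libraries.

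The ligands of Cxcr3 rose in the same cells. Cxcl10 ran at 76.3 and 111 CPM at RT, 778 and 608 after cold and 275 and 104 after CL. The COLD pools lay above all others, and the RT and CL ranges overlapped (log2 fold change 3.06 ± 0.44, adjusted p = 0.00449). Cxcl9 rose from 231 and 531 to 1092 and 1268 CPM (log2 fold change 1.89 ± 0.48, adjusted p = 0.0396) and stood at 373 and 218 CPM after CL. With the experiment number as a block its adjusted p was 0.0559. The neutrophil attractant Cxcl2, at 4.49 and 2.76 CPM at RT, reached 35.5 and 20.9 CPM (log2 fold change 2.83 ± 0.56, adjusted p = 0.0167). Cx3cl1 rose from 3.01 and 8.34 to 24.7 and 24.1 CPM (log2 fold change 2.49 ± 0.29, adjusted p = 0.00235). Cxcl13 rose after both treatments, from 48.5 and 26.6 CPM at RT to 224 and 307 CPM in the cold (log2 fold change 2.83 ± 0.54, adjusted p = 0.0152) and 476 and 189 CPM after CL (log2 fold change 3.12 ± 0.55, adjusted p = 0.0413, in 1 of 19 tested genes where 1.01% of all genes were called). The CL call of Cxcl13 was lost without the second RT, either COLD or the first CL library and without the barcodes shared by the CL libraries. Cxcl14, an ASC1 gene of the study, ran at 4178 and 4806 CPM at RT and 1165 and 947 in the cold and did not pass (log2 fold change -1.95 ± 0.80, adjusted p = 0.151), nor did Ccl11 (-0.91, adjusted p = 0.535). Of the 9 cold calls, 5 to 8 were kept when 1 library was left out, fewest without the first COLD library.

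The class held a pair of clusters whose shares changed with treatment. Cluster 1, led by Ubd, Timp1, Tnc, Saa3 and the chemokine genes themselves, held 2.6% and 5.6% of the class at RT, 88.4% and 92.2% of it after cold and 72.1% and 36.1% after CL; cluster 4 held the rest. In each of the 10 experiments cluster 1 had more CPM than cluster 4 of Ccl2, Ccl7, Ccl8, Cxcl1, Cxcl9, Cxcl10 and Cx3cl1, and less of Ccl11 and Cxcl14. Tested on its own, neither cluster gave a cold call by edgeR among the chemokine genes (0 of 18 in cluster 1, with 0.228% of all genes called, and 0 of 15 in cluster 4, with 0.717%), with 2 and 3 genes at an unadjusted p under 0.05. Ccl2 ran at 2086 and 1692 CPM in cluster 1 at RT and 1912 and 875 in the cold, against 129 and 209.8 and 152 and 142 CPM in cluster 4. Cxcl10 ran at 1376 and 1341 and 848 and 641 CPM in cluster 1 against 30.0 and 29 and 47.6 and 15.2 CPM in cluster 4. Within cluster 1 of C57 mice neither gene was higher in the cold, and the RT levels there rested on 33 and 69 cells. Cxcl13 and Cx3cl1 had positive within-cluster differences that did not pass. The clusters were made without the 42 genes, but from genes of the same cells, so that the difference between them is a description.

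**Figure D3:**
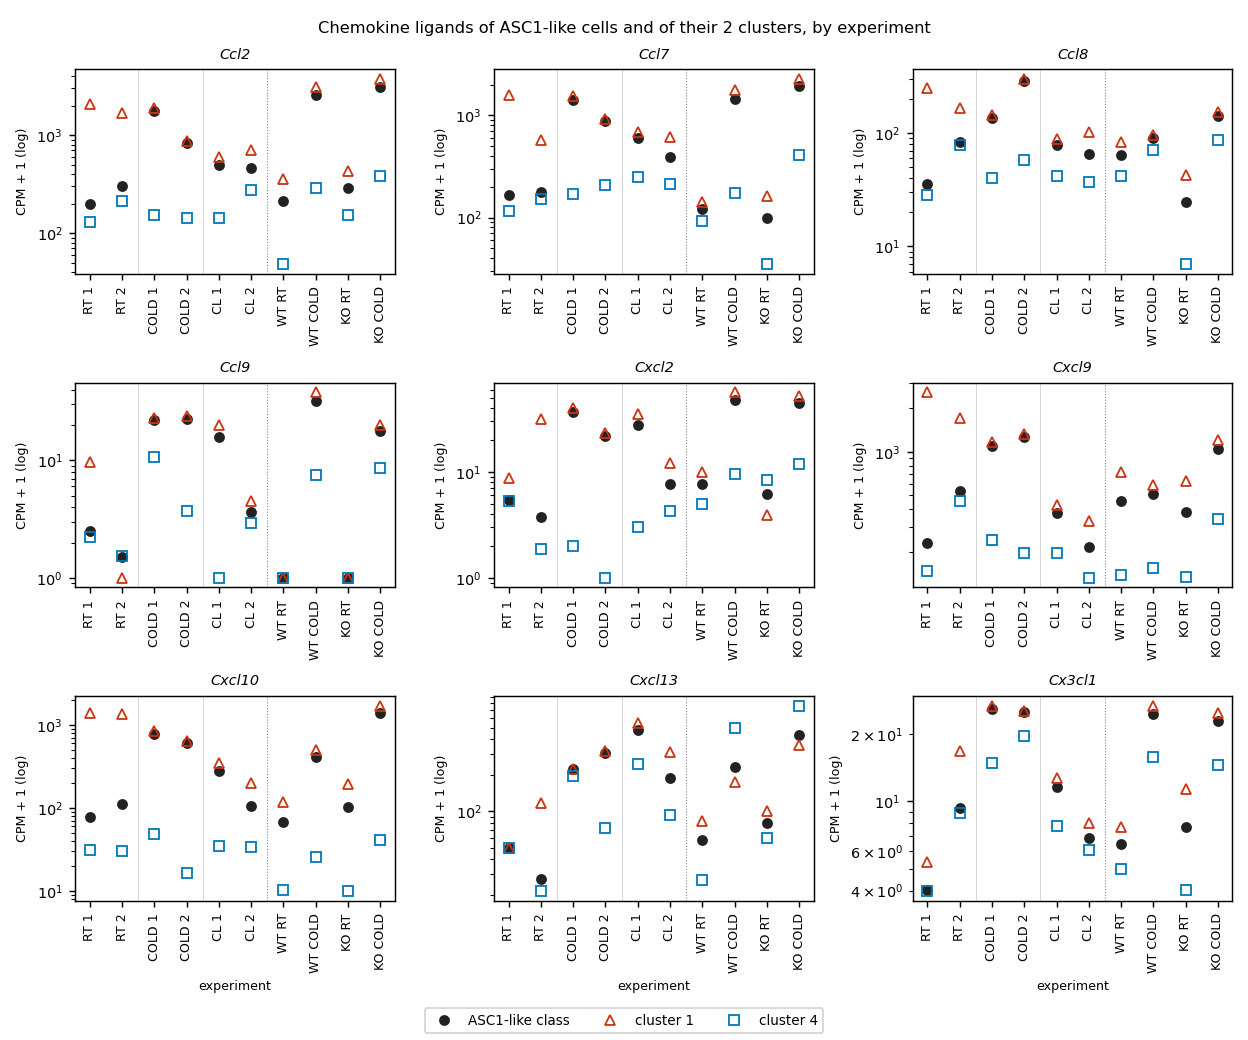
CPM plus 1 (log axis) of the 9 ligands called in ASC1-like cells, for the whole class (filled circles), cluster 1 (triangles) and cluster 4 (squares) in each of the 10 experiments, with the Adrb1 line right of the dotted line. The class lay near cluster 4 at RT in C57 mice and near cluster 1 in the cold. Ccl2 in cluster 1 did not differ in that direction between RT and COLD in C57 mice, but was higher in the cold in WT and KO.

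Sequences before the start of 4 CXC ligands are shown because these genes rose in ASC1-like cells (Cxcl2, Cxcl9 and Cxcl10) or lay beside a gene that did (Cxcl1), and because they form neighbouring pairs on chromosome 5. Each runs 5′ to 3′ and ends at the base before the transcription start (RefSeq, GRCm38.p6), at chr5:90890995-90891244 on the plus strand for Cxcl1, chr5:90903649-90903898 on the plus strand for Cxcl2, chr5:92328080-92328329 on the minus strand for Cxcl9 and chr5:92348890-92349139 on the minus strand for Cxcl10. Capitals mark matches to the NF-kappaB motif (GGG and TTCC with any 3 bases between them), the interferon-stimulated response element (GAAA, any 2 bases and GAAA) or the STAT motif (TTC and GAA with any 3 bases between them) on either strand.
Cxcl1: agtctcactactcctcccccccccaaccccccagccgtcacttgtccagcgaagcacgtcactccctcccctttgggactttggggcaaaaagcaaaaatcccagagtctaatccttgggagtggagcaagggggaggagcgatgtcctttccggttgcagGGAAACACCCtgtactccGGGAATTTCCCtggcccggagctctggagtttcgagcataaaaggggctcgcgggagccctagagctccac
Cxcl2: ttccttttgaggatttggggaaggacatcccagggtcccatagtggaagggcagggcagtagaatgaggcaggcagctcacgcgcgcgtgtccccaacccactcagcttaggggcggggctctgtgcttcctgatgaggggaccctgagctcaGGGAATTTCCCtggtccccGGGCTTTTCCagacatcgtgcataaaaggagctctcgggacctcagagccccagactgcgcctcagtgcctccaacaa
Cxcl9: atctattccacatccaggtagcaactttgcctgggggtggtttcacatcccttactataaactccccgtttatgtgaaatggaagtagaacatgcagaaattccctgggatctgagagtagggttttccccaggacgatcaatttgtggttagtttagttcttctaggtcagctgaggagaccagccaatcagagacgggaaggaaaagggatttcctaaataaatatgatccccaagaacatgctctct
Cxcl10: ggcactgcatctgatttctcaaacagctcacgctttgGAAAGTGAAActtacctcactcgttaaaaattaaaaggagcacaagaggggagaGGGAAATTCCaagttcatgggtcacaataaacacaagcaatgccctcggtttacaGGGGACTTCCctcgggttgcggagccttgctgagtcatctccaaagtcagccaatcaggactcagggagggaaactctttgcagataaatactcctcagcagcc
The run GGGAATTTCCC stood in both Cxcl1 and Cxcl2, where it gives overlapping matches on opposite strands. Cxcl10 held 2 NF-kappaB matches, 159 and 104 bases before the start, and 1 response element 213 bases before it. No match to the 3 motifs was found in these 250 bases of Cxcl9. Of 32 member genes with a RefSeq start, 6 held an NF-kappaB match (Ccl9, Cxcl1, Cxcl2, Cxcl10, Ccr3 and Ccr6), where 4.65% of 32536 promoters did, and 3 each held a response element (Ccl19, Cxcl10 and Cxcl14, with 2.98% of all promoters) or a STAT motif (Ccl17, Cxcl14 and Ccr6, with 7.04%). A match is a description of letters, not a site.

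Beside the chemokine genes in ASC1-like cells, 9 of 15 tested genes of a fixed interferon response list rose after cold and 0 fell (median 1.25, against 0.01 over all genes, of which 11% were called). Of 10 tested NF-kappaB target genes, 6 rose, beside the same 11% of all genes: Tnfaip3 and Relb of the pathway itself, the adhesion gene Icam1, the cytokine Il6 and the acute phase genes Saa3 and Lcn2. Of 8 tested further genes of the chemokine system, Cmklr1, the receptor of chemerin, fell and no other was called. None of 12 genes of a fixed dissociation stress list (immediate early and heat shock genes) was called. The list summed to 11978 and 4734 CPM at RT and 6385 and 6111 in the cold, so that the RT pools lay on either side of the COLD pools. The part of this list in the chemokine calls was not tested. In ASC1-like cells, immune cell markers summed to 16.6 and 11.9 CPM at RT and 22.2 and 17 after cold, MAC3 markers to 113 and 121 and 173 and 139 CPM and stromal cell markers to 104810 and 77200 and 39517 and 44124 CPM; their part in the chemokine calls was not tested. In the Adrb1 line the immune cell markers were also higher in the cold, at 18.6 against 11 CPM in WT and 18.1 against 10.9 CPM in KO.

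ASC2-like cells gave 0 calls in 19 tested genes after cold by edgeR (3 by DESeq2, and 6 at an unadjusted p under 0.05), where 0.459% of all genes were called. Ccl2 ran there at 252 and 264 CPM at RT and 550.4 and 238 in the cold, and Cxcl10 at 65 and 59.1 and 109.8 and 161 CPM, while Cxcl13 stayed between 1031 and 2406 CPM at RT and 1454 and 1976 in the cold. A term for the difference of the cold responses, fitted over ASC1-like and ASC2-like sums with each library as a block, passed for 5 of 21 genes (Ccl2, Ccl7, Cxcl2, Cxcl10 and Cxcl13), all larger in ASC1-like cells, where 5.31% of all genes passed. Without the library block 0 passed, and without the first COLD library 3 did.

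Other stromal and vascular classes gave few calls. In pericyte-like cells, which wrap capillaries, 5 of 10 tested ligands rose after cold where 0.794% of all genes were called: Ccl2 (19.7 and 43.5 to 680.2 and 204 CPM, log2 fold change 3.89 ± 0.54, adjusted p = 0.00678), Ccl8, Cxcl9, Cxcl10 and Cxcl13 (log2 fold changes 2.91, 3.96, 4.00 and 2.83). These were ligands that ASC1-like cells held at higher levels, and stromal cell markers summed to 6966 and 3521 CPM in pericyte-like cells at RT and 5928 and 3645 in the cold. Immune cell markers there summed to 41.4 and 37.6 CPM at RT and 137 and 35.5 in the cold, and MAC3 markers to 19.2 and 27.3 and 174 and 20.8 CPM. The part of these markers in the calls was not tested. None of the 5 calls was kept without the cells that scored highest as doublets or without either CL library, and 1 was kept without the first COLD library. Single calls after cold were Ccl5 in ASC3-like cells (3.46 ± 0.55, adjusted p = 0.0461, background 0.195%) and Cxcl10 in the Cilp-marked cluster (1.55 ± 0.28, adjusted p = 0.043, background 0.329%), both lost without any of the RT and COLD libraries, without the doublet-like cells and without the barcodes shared by the CL libraries. NK markers in ASC3-like cells summed to 0 and 0 CPM at RT and 6.15 and 2.95 after cold, and their part in the Ccl5 call was not tested. Cx3cl1 in arterial VEC-like cells ran at 56.4 and 106 CPM at RT, 99.8 and 103 after cold and 43.8 and 72.5 after CL and was not called.

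Lyve1 MAC2-like macrophages changed their ligands after both treatments. Ccl8 ran at 956 and 1005 CPM at RT, 2509 and 3229 after cold and 10205 and 4677 after CL, in groups that did not overlap. It was higher in both treatments than at RT (COLD 1.40 ± 0.36, adjusted p = 0.0457; CL 2.82 ± 0.38, adjusted p = 0.00372), and COLD against CL did not pass (log2 fold change -1.42 ± 0.36, adjusted p = 0.359). Ccl24 moved the other way, from 1137 and 963 CPM at RT to 432 and 321 in the cold (log2 fold change -1.62 ± 0.27, adjusted p = 0.00939) and 258 and 307 after CL (log2 fold change -1.95 ± 0.27, adjusted p = 0.00372). Ccl6 rose from 1568 and 1255 to 4768 and 5221 CPM in the cold (log2 fold change 1.68 ± 0.34, adjusted p = 0.0192), and its 4298 and 2266 CPM after CL did not pass (adjusted p = 0.0945). Ccl9 also rose (1.28 ± 0.29, adjusted p = 0.0319). Of receptors, Ccr1 (-2.13), Ccr2 (-1.28) and Cxcr4 (-1.81) fell after cold. In all, 7 of 18 tested genes were called after cold (3 higher, 4 lower, background 5.87%) and 2 of 18 after CL (background 2.75%). The class held 125 and 87 cells at RT and 63 and 38 in the cold, neutrophil markers in it summed to 1736 and 1059 CPM at RT and 121 and 182 in the cold, and 7 of 12 dissociation stress genes fell; the part of these in the fall of Ccr1 and Cxcr4 was not tested. MAC1 markers in it summed to 1646 and 2579.6 CPM at RT, 7023 and 8384 after cold and 9772 and 6678 after CL, and their part in the ligand calls was not tested. None of the cold calls was kept without the first RT or the second COLD library, 1 without the first COLD and 3 without the second RT library, and neither CL call without the first RT library.

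In Mgl2 MAC2-like macrophages 5 ligands fell and 2 ligands and 1 receptor rose in the cold. Ccl12 ran at 1481 and 1211 CPM at RT, 475 and 443 after cold and 417 and 698 after CL. Both RT pools lay above the other 4 (COLD log2 fold change -1.66 ± 0.32, adjusted p = 0.0132; CL log2 fold change -1.34 ± 0.31, adjusted p = 0.0492). The Cxcr3 ligands fell here, opposite to ASC1-like cells. Cxcl9 ran at 77.1 and 107 CPM at RT, 6.47 and 0 after cold and 16.6 and 40.6 after CL (COLD -4.20 ± 0.65, adjusted p = 0.00371; CL -1.77 ± 0.37, adjusted p = 0.0337), and Cxcl10 at 258 and 99.1, 59 and 12.4 and 43.1 and 51.6 CPM (COLD -2.05 ± 0.47, adjusted p = 0.0355; CL -2.01 ± 0.40, adjusted p = 0.0279). The difference in response between these classes was not tested. Ccl24 (-2.26) and Ccl5 (-2.01) fell after cold, and Ccl6 (1.03), Ccl9 (0.95) and the receptor Ccr1 (1.54) rose. That made 8 of 22 tested genes (background 2.64%), and 3 of 22 after CL (background 1.28%). Marker genes of the class moved too: MAC2 markers summed to 4217 and 4475 CPM at RT and 2685 and 2118 in the cold, while MAC1 markers went from 1973 and 2028 to 8379 and 6623 CPM. Neutrophil markers went from 479 and 443 to 83.9 and 53.7 CPM, T lymphocyte markers from 48.9 and 69.3 to 28.4 and 13.1 CPM and dissociation stress genes from 15305 and 15179 to 8403 and 13800 CPM. The part of these in the chemokine calls was not tested. None of the 8 cold calls was kept without the first COLD library and 1 without the second, which held 48 cells of the class, against 3 and 5 without the first and the second RT library; the CL calls were lost without the first RT or either COLD library, and 1 of 3 was kept without the second RT or the first CL library.

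MAC3-like macrophages, which were 1.53 and 2.14% of Lin+ cells at RT and 16.1 and 10.5% in the cold, held more of some monocyte attractants in the cold. Ccl2 ran at 464 and 895 CPM at RT, 2992 and 2240.1 after cold and 1452 and 512 after CL. The COLD pools lay above the other 4 (log2 fold change 1.90 ± 0.44, adjusted p = 0.0243). Ccl7 (2.48), Ccl9 (1.39) and Cxcl10 rose as well, the last from 375 and 218 to 1035 and 673 CPM (log2 fold change 1.50 ± 0.34, adjusted p = 0.0232). Cxcl9 went the opposite way to Cxcl10 in these cells. It ran at 155 and 238 CPM at RT, 19.1 and 59.3 in the cold (-2.42 ± 0.46, adjusted p = 0.0132) and 8.16 and 9.24 after CL (-4.57 ± 0.56, adjusted p = 0.0244, 1 call in 23 genes, background 0.068%). The receptors Cxcr4 (-1.13), Cx3cr1 (-1.52) and Cxcr2 fell. Cxcr2 ran at 68.9 and 72.8 CPM at RT, 4.34 and 18.8 after cold and 27 and 73.9 after CL (-2.76 ± 0.71, adjusted p = 0.0345), and neutrophil markers in the class summed to 11958 and 26979, 791 and 3482 and 4536 and 26345 CPM, in the same order of groups; their part in the call was not tested. The MAC3 markers that name the class moved too, from 2088 and 1795 CPM at RT to 7327 and 5072 in the cold. MAC1 markers in the class summed to 3076 and 2182 CPM at RT and 19849 and 15936 in mice in the cold, and MAC2 markers to 1574 and 2083 and 478 and 457 CPM. The part of these and of the neutrophil markers in the calls of Ccl2, Ccl7 and the other ligands was not tested. In all, 8 of 23 tested genes were called (background 12.9%), of which 0 were kept without either RT library, 1 without the first and 5 without the second COLD library; the CL call of Cxcl9 was lost without either RT library.

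**Figure D4:**
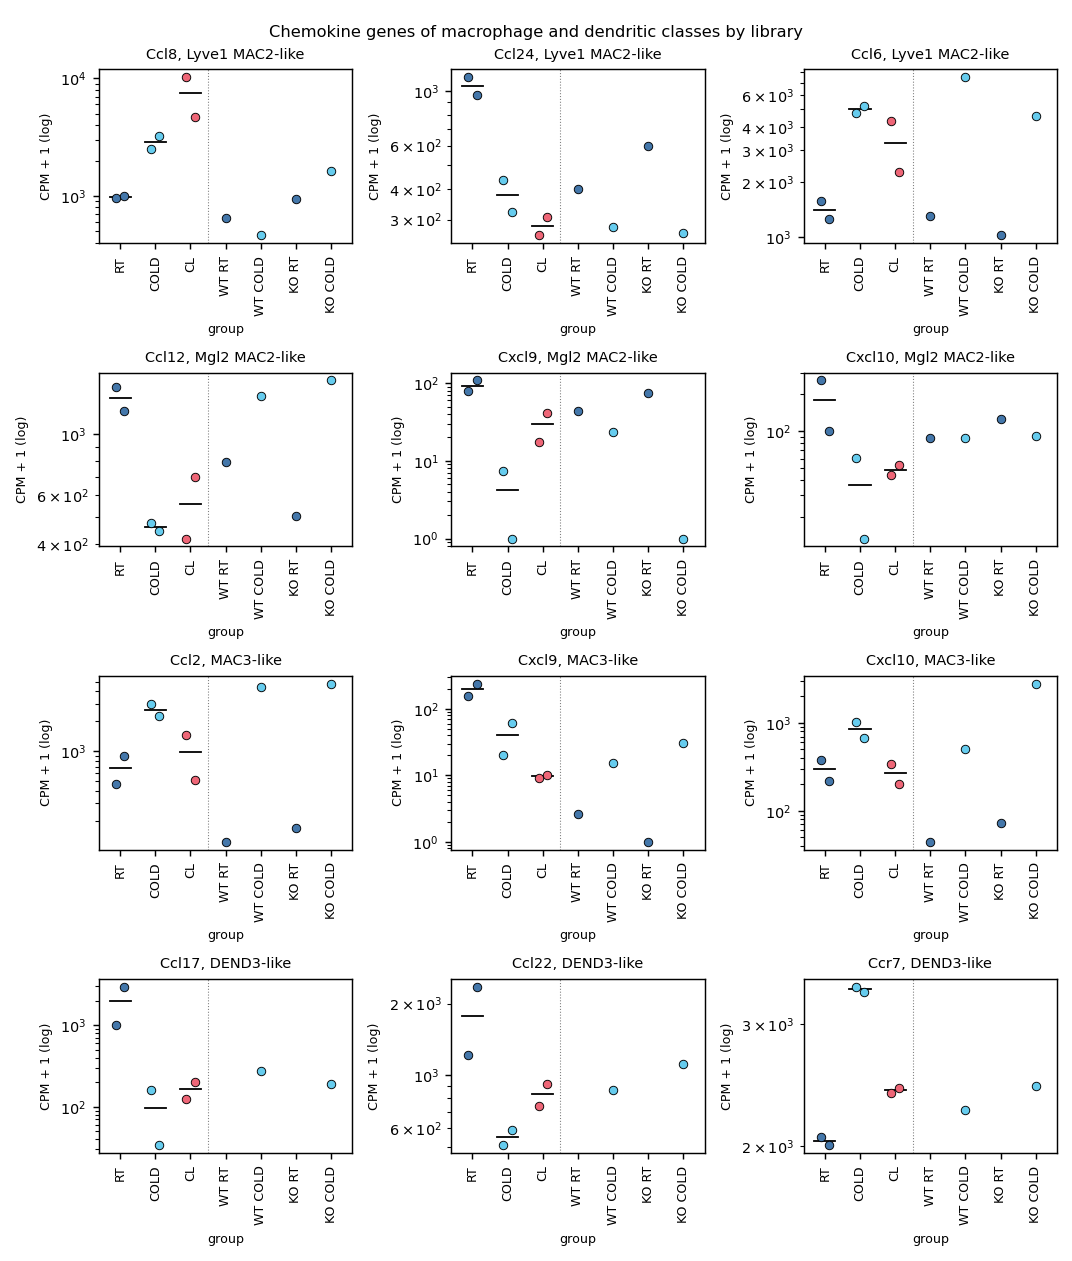
CPM plus 1 (log axes) of chemokine genes in macrophage and dendritic classes, 1 point per library, with the C57 groups left of the dotted line (bars are means of 2 libraries) and the single libraries of the Adrb1 line right of it. In C57 mice Ccl8 rose and Ccl24 fell in Lyve1 MAC2-like cells after cold and CL. In the same mice Ccl12, Cxcl9 and Cxcl10 fell in Mgl2 MAC2-like cells after cold. Ccl17 and Ccl22 fell in DEND3-like cells of C57 mice after cold, while Ccr7 did not pass.

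MAC1-like macrophages were 9 and 11 cells at RT and could be tested only between treatments, where 3 of 26 genes were called (background 1.24%). Ccl2 was higher in the cold, with 1248 and 1534 CPM against 700.0 and 402 after CL (log2 fold change 1.34 ± 0.25, adjusted p = 0.0469). Ccl8 was lower, with 205 and 211 against 1946 and 1195 CPM (log2 fold change -2.91 ± 0.24, adjusted p = 0.00414), as was Ccl24, with 6.84 and 5.57 against 52.2 and 40.0 CPM (log2 fold change -2.90 ± 0.19, adjusted p = 0.00162). MAC2 markers in the class summed to 779 and 631 CPM in the cold and 1791 and 1215 after CL, and their part in the calls of Ccl8 and Ccl24 was not tested. Ccl24 was called under every alternative tried, and 1 of the 3 calls was kept without the second COLD library and 2 without the first.

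The Ccr4 ligands fell in dendritic cells in the cold. In DEND3-like cells Ccl17 ran at 996 and 2943 CPM at RT, 159.6 and 33 after cold and 124 and 203 after CL. The RT pools lay above all others (log2 fold change -4.55 ± 0.75, adjusted p = 0.0148; CL, adjusted p = 0.164). Ccl22 fell from 1211 and 2346 to 509.6 and 589.5 CPM (log2 fold change -1.89 ± 0.37, adjusted p = 0.0297). In DEND1-like cells, the cross-presenting type, Ccl17 ran at 156 and 194 CPM at RT, 6.73 and 7.44 after cold and 11 and 76.8 after CL (log2 fold change -4.87 ± 0.53, adjusted p = 0.00206), and this call held under every alternative tried. The other calls in DEND3-like cells were falls of Cxcl9 (-2.94) and Ccl24, the latter from 4.36 and 260.0 to 3.27 and 4.64 CPM, so that 1 library carried the RT level. This made 4 of 14 genes (background 3.16%), with 42 and 32 cells at RT; without the second RT library 0 calls were kept, without the first COLD library 1 and without the second 2. MAC1 markers in DEND3-like cells summed to 4177 and 4201 CPM at RT and 7534 and 7303 after cold, and MAC3 markers to 171 and 42.1 and 446 and 455 CPM; their part in these calls was not tested. In DEND1-like cells 4 of 21 were called (background 6.2%), with falls of Ccl5 (-2.31) and Xcl1 (-2.27) and a rise of Ccl2 (1.16); 1 or 2 calls were kept without an RT or COLD library. T lymphocyte markers in DEND1-like cells summed to 155 and 185 CPM at RT and 63.7 and 37.3 after cold, NK markers to 129.9 and 284 and 217 and 228 CPM and MAC3 markers to 42.3 and 45.7 and 222 and 202 CPM; their part in the calls of Ccl5, Xcl1 and Ccl2 was not tested.

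In DEND2-like cells, of monocyte or conventional type 2 character, Cxcl1 ran at 12.1 and 12.9 CPM at RT, 48 and 58.3 after cold and 92.2 and 81.5 after CL. All 4 treated pools lay above both RT pools (COLD 1.87 ± 0.23, adjusted p = 0.002; CL 2.63 ± 0.23, adjusted p = 0.00756). Ccl3 (0.90) and Ccl7 (1.45) also rose in the cold, which made 3 of 23 genes where 17.1% of all genes were called, and Ccl5 fell after CL (-1.72 ± 0.23, adjusted p = 0.0248, 2 of 23 called, background 0.742%). MAC1 markers in DEND2-like cells summed to 2490.3 and 2401 CPM at RT, 10302 and 9926 after cold and 8202 and 5327 after CL. T lymphocyte markers summed to 379 and 477 CPM at RT, 177 and 179 after cold and 138 and 245 after CL, NK markers to 119.6 and 213, 166 and 185 and 81.9 and 86.2 CPM and MAC2 markers to 969.8 and 1191, 445 and 480.5 and 724 and 1022 CPM. The part of these markers in the calls of the 3 contrasts was not tested. The cold call of Cxcl1 held under every alternative tried, while both CL calls were lost without either RT library, 1 was lost without the first CL library or the doublet-like cells, and 1 to 2 of the cold calls without an RT or COLD library. Between treatments, Cxcl10 (2.21 ± 0.35, adjusted p = 0.0288) and Ccl5 (1.64) were higher and Ccl24 (-2.20) lower in the cold than after CL (3 of 23, background 1.24%), with no call kept without the first RT or either COLD library and 1 kept without the second RT or the second CL library.

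Monocytes, lymphocytes and small myeloid clusters gave few calls after cold. Classical monocyte-like cells raised Ccl2 from 88 and 154 to 398 and 378 CPM (log2 fold change 1.57 ± 0.26, adjusted p = 0.0413, 1 of 18 genes, background 0.128%), a call lost without the first RT or either COLD library. MAC3 markers in these cells summed to 1936 and 3010.2 CPM at RT and 6488 and 7235 after cold, and their part in the call was not tested. Nonclassical monocyte-like cells raised Cxcl10 (2.58 ± 0.50, adjusted p = 0.044, background 0.386%), and CD4 T lymphocyte-like cells did too (1.68 ± 0.34, adjusted p = 0.0491, background 0.684%). Each of these was lost without any RT library, without the first COLD library and with DESeq2, the first also without the second COLD library and the second without the barcodes shared by the CL libraries. MAC3 markers summed to 1539 and 1457 CPM at RT and 2716 and 2757 after cold in nonclassical monocyte-like cells and to 59.5 and 82.5 and 199.7 and 218 CPM in CD4 T lymphocyte-like cells; their part in the Cxcl10 calls was not tested. A proliferating myeloid cluster raised Ccl9 (1.44, background 0.81%), and a cluster of macrophage markers with low counts raised Ccl9 (1.49) and Cxcl2 (1.67) and lost Ccl24 (-4.72, background 7.01%). The call in the first was lost without any RT or COLD library, and of the 3 in the second 0 were kept without the second RT library and 1 without the first RT or the second COLD library. MAC1 markers summed to 2379 and 1988 CPM at RT and 11222 and 9728 after cold in the proliferating myeloid cluster, and to 3162 and 3049.5 and 22578 and 16615 CPM in the low-count cluster; their part in the calls of Ccl9 and Cxcl2 was not tested. In that low-count cluster MAC2 markers summed to 2863 and 3536 CPM at RT and 629 and 569 in the cold, and their part in the fall of Ccl24 was not tested. In NK-like cells Ccl5 ran at 17765 and 19046 CPM at RT, 5995 and 9280.1 after cold and 10142 and 18463 after CL and missed the threshold (log2 fold change -1.42 ± 0.34, adjusted p = 0.0691), and neither Xcl1 (adjusted p = 0.153) nor Ccl4 (adjusted p = 0.786) passed. In neutrophil-like cells Cxcl2 ran at 4172 and 4648 CPM at RT, 9056 and 11908 after cold and 14761 and 7768 after CL, with no call (adjusted p = 0.484 for cold and 0.171 for CL).

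Ccl8 was the gene that CL raised in most classes, 7 in all. Beside Lyve1 MAC2-like cells these were B lymphocyte-like cells (10.0 and 5.79 CPM at RT, 11.7 and 3.32 after cold and 174 and 55.1 after CL, log2 fold change 3.52 ± 0.46, adjusted p = 0.0107), T lymphocyte-like cells (2.73), classical (4.42) and nonclassical (3.78) monocyte-like cells, the proliferating myeloid cluster (25.1 and 39.9 CPM at RT, 41.4 and 36.9 after cold and 1842 and 674 after CL, log2 fold change 5.11 ± 0.50, adjusted p = 0.00345) and the low-count macrophage cluster (3.05). In every one of these classes the first CL library was the highest and the CL pools lay above the RT pools. In the lymphocyte classes the level was low beside the 10205 and 4677 CPM of Lyve1 MAC2-like cells, which were 12.7 and 3.32% of Lin+ cells after CL and 2.70 and 1.72% at RT. MAC2 markers, which lymphocytes should lack, summed in B lymphocyte-like cells to 71.3 and 76.8 CPM at RT, 26.1 and 16.7 after cold and 229.8 and 59.5 after CL, and in T lymphocyte-like cells to 59.9 and 42.5 CPM at RT and 154 and 56.5 after CL; the part of stray RNA in these calls was not tested. MAC1 markers summed to 2379 and 1988 CPM at RT and 14715 and 6508 after CL in the proliferating myeloid cluster and to 3162 and 3049.5 and 20631 and 9706 CPM in the low-count cluster, and MAC3 markers to 1936 and 3010.2 and 5186 and 5822 CPM in classical monocyte-like cells. MAC2 markers summed to 2661 and 2519 CPM at RT and 2684 and 2132 after CL in the proliferating myeloid cluster. They summed to 2863 and 3536 and 2294 and 1762 CPM in the low-count cluster. In classical monocyte-like cells they were 814 and 777 and 774 and 655 CPM, and in nonclassical ones 518 and 564 and 641 and 439 CPM. The part of these markers was not tested either. In these 6 further classes the background was 0.234% of all genes (B lymphocyte-like), 0.193% (T lymphocyte-like), 0.114% (classical), 0.145% (nonclassical), 0.226% (proliferating myeloid) and 0.621% (low-count). The B lymphocyte-like call held under every alternative tried, while the T lymphocyte-like call was lost with DESeq2 and without the first RT library. The other 4 were lost without either RT library, both monocyte calls also with DESeq2 and without the first CL library and the nonclassical one without the second CL library or the doublet-like cells, and with the block the nonclassical monocyte-like call had an adjusted p of 0.0544.

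Other calls after CL were few. Ccl6 rose in B lymphocyte-like cells (1.22 ± 0.22, adjusted p = 0.0429), a call lost with DESeq2 and without the first RT, either COLD or the first CL library. MAC1 markers in B lymphocyte-like cells summed to 109 and 129 CPM at RT and 641 and 316 after CL, and their part in the call was not tested. Ccl7 rose in Schwann-like cells (4.50 ± 0.70, adjusted p = 0.0291, background 0.0559%), where it was lost without the second CL library. In the Lin- lymphoid cluster Cxcl1 rose (3.14) and Cxcl14 fell (-2.08, background 0.591%), where stromal cell markers summed to 8306 and 4475 CPM at RT and 11339 and 11453 after CL; neither call was kept without the second RT library, the second CL library, the barcodes shared by the CL libraries or the doublet-like cells, and 1 was kept without the first CL library.

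Setting COLD directly against CL gave 16 calls in 620 pairs (8 higher and 8 lower in the cold), or 2.58%, where 0.231% of all pairs were called, 59 with the experiment number as a block and 55 without either CL library. Ccl8 was lower in the cold than after CL in 4 classes, MAC1-like, B lymphocyte-like (-3.87, background 0.0986%), the proliferating myeloid cluster (-4.99, background 0.226%) and the low-count macrophage cluster (-3.22, background 0.395%), and Ccl24 was lower in MAC1-like cells, DEND2-like cells and the proliferating myeloid cluster (-2.49). The B lymphocyte-like call was lost without either COLD library, and both calls of the proliferating myeloid cluster without the doublet-like cells. MAC2 markers summed to 1107 and 827 CPM in COLD and 2684 and 2132 in CL libraries of the proliferating myeloid cluster, and to 629 and 569 and 2294 and 1762 CPM in the low-count cluster; their part in the Ccl8 and Ccl24 calls was not tested. Proliferating-like stromal cells, of which RT libraries had 12 and 4, held more Ccl5 (2.63), Cxcl9 (397 and 832 against 72.2 and 130.2 CPM, 2.60 ± 0.48, adjusted p = 0.0489), Cxcl10 (2.32) and Cxcl14 (2.19) and less Cxcl2 (-2.19 ± 0.27, adjusted p = 0.0164) in the cold, 5 of 19 genes (background 0.907%). Of these, 2 were kept without the barcodes shared by the CL libraries, 3 with RLE factors in place of TMM, and 4 with DESeq2 or without the first CL library. Stromal cell markers in proliferating-like cells summed to 10265 and 19472 CPM in COLD and 20686 and 30672 in CL libraries. Their part in the calls was not tested. Activated fibroblast-like cells, marked by Cthrc1, held more Cxcl9 in the cold (2.73 ± 0.28, adjusted p = 0.0199, background 0.0343%), a call lost without the second COLD library or the doublet-like cells. Stromal cell markers in them summed to 33619 and 39088 CPM in COLD and 45447 and 63039 in CL libraries. MAC3 markers summed to 79.0 and 87.9 and 64.9 and 38.7 CPM, and the part of either list was not tested.

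Over the 3 contrasts, 49 pairs of a receptor and its highest tested class gave 0 calls by edgeR and 0 by DESeq2, with 6 at an unadjusted p under 0.05. In the same 37 comparisons 0.489% of all genes tested were called, so that a count of 0 in 49 pairs does not set the receptors apart. Ccr2 in classical monocyte-like cells ran at 759 and 806 CPM at RT, 872 and 780.0 after cold and 1358 and 851 after CL (log2 fold change -0.04 ± 0.23, adjusted p = 0.968). Cxcr3 in CD4 T lymphocyte-like cells ran at 88.2 and 193, 271 and 242 and 189.5 and 103 CPM (log2 fold change 0.64 ± 0.29, adjusted p = 0.464). Cxcr2 in neutrophil-like cells ran at 356 and 319, 485 and 562 and 495 and 439.8 CPM (log2 fold change 0.59 ± 0.29, adjusted p = 0.61). For these last receptors the COLD pools were higher than both RT pools without passing the test. Xcr1 in DEND1-like cells differed by 0.08 ± 0.21, Ccr7 in DEND3-like cells by 0.52 ± 0.27 and Cxcr5 in B lymphocyte-like cells by 0.60 ± 0.18 on the log2 scale. The atypical receptors Ackr1 in venous VEC-like cells (1008 and 728 CPM at RT, 1102 and 689 after cold and 333 and 464 after CL) and Ackr3 in ASC2-like cells (936 and 956, 758 and 862 and 508 and 807 CPM) were not called either.

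**Figure D5:**
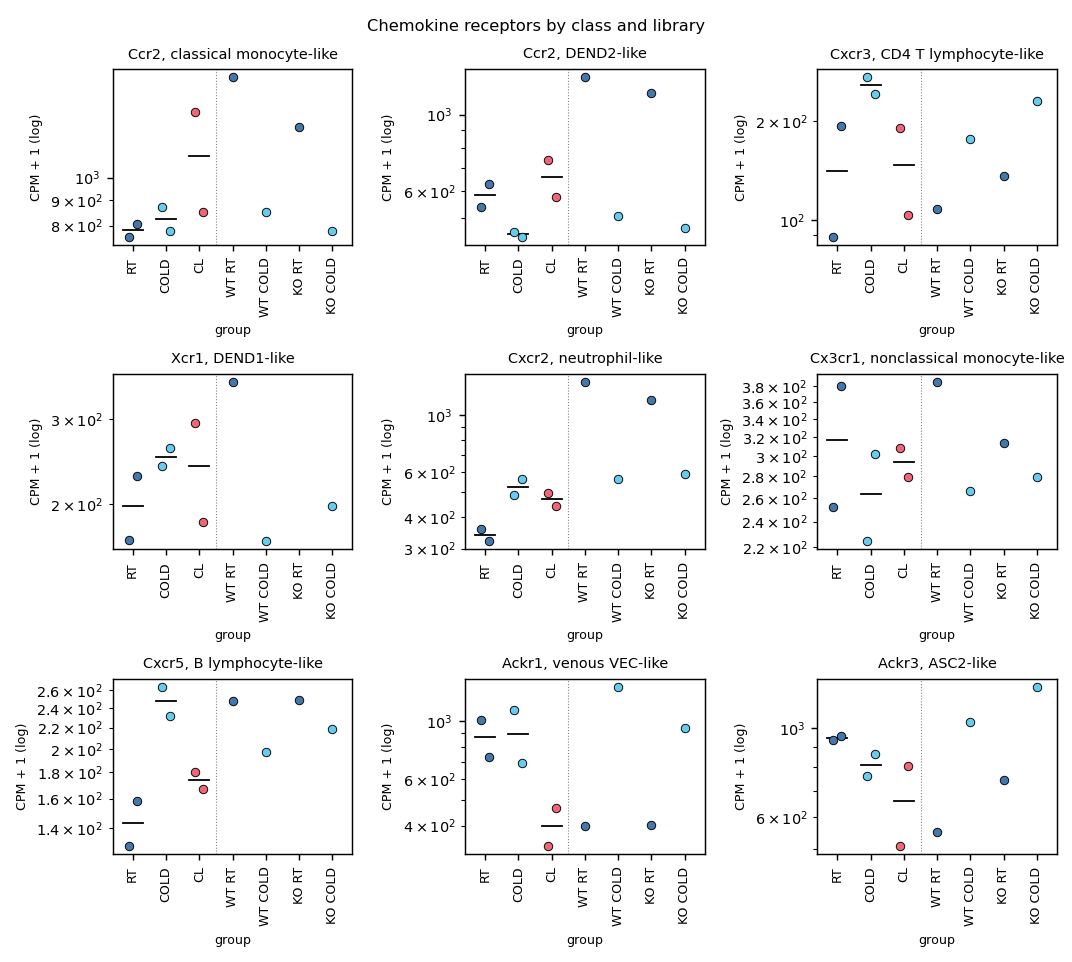
CPM plus 1 (log axes) of 8 receptors in the class that led them or, for Ccr2, in a further dendritic class too, 1 point per library; bars are means of the 2 C57 libraries of a group, and the single libraries of the Adrb1 line stand right of the dotted line. None of these pairs passed in a C57 contrast, and the Ccr2, Cxcr2 and Xcr1 panels show WT RT, made with the other kit version, above the C57 libraries.

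In the whole Lin+ fraction, which holds both the level in each class and the number of its cells, 6 of 38 genes were called after cold where 11.1% of all genes were, with median log2 fold changes of -0.22 over the tested members and -0.03 over all genes. Ccl2 (1.18), Ccl9 (1.81), Cxcl16 (0.71) and Xcr1 (1.39) were higher and Ccl24 (-2.36) and Cx3cr1 (-1.14) lower. Class shares moved beside them. MAC1-like cells went from 0.194 and 0.218% to 17.9 and 16.9% of Lin+ cells and DEND1-like cells, the leading class of Xcr1, from 3.43 and 2.52% to 8.61 and 7.97%. Mgl2 MAC2-like cells went from 12.9 and 12.4% to 2.30 and 0.68% and nonclassical monocyte-like cells, the leading class of Cx3cr1, from 5.27 and 3.17% to 1.16 and 1.26%. In a whole fraction, fewer cells of a class and less RNA per cell cannot be told apart. None of the 6 calls was kept without any of the RT or COLD libraries. Counted over the Lin+ and Lin- fractions together, 38 and 36 cold calls were made without the first and the second CL library. With the experiment number as a block, 17 were made over both. In the whole Lin- fraction 0 of 37 genes were called by edgeR after cold (background 0.013%), although 15 had an unadjusted p under 0.05 and DESeq2 called 12. After CL, 0 genes were called in either fraction (background 0%), with 12 (Lin-) and 13 (Lin+) at an unadjusted p under 0.05. Over both fractions together, DESeq2 made 18 calls after CL, and edgeR made 10 and 24 without the first and the second CL library.

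The source of a ligand within a fraction also differed between RT and cold. ASC1-like cells held 42 and 40.2% of the Lin- UMIs of Cxcl10 at RT and 63.7 and 65.2% in the cold, and 37.9 and 39.6% and 64.7 and 65.5% of those of Ccl2. Among Lin+ cells, Mgl2 MAC2-like macrophages held 71.5 and 64% of the Ccl2 UMIs at RT and 1.99 and 0.709% in the cold, when MAC3-like cells held 48.5 and 33.2% and MAC1-like cells 32 and 46.2%. Of these 3 macrophage classes, Mgl2 MAC2-like cells thus held the most Ccl2 UMIs in both RT pools and the fewest in both COLD pools. Such shares of UMIs hold both the number of cells of a class and its level per cell, which were not separated, and are a description.

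In the Adrb1 line, with 1 library per genotype and temperature in each fraction, values are given without a test within the line. Of the 57 cold calls in C57 classes, 48 had values in WT and 40 of these differed in the same direction, as did 37 of 43 in KO; for calls that were higher in the cold these were 29 of 32 and 29 of 30, and for lower calls 11 of 16 and 8 of 13. Among ligands alone, higher calls kept their direction in 28 of 31 in WT and 28 of 29 in KO. Lower calls of ligands kept it in 5 of 10 in WT and 3 of 7 in KO, and 5 and 4 were opposite. The same share over all genes called in C57 mice was not computed, so these counts cannot be set against a background. All 9 ASC1-like calls kept their direction in both genotypes. For Ccl9 the RT value was 0 CPM in WT and in KO, so that only a rise could be seen. Dissociation stress genes in ASC1-like cells summed to 17633 CPM at RT and 5248 in the cold in WT. In KO they summed to 20016 and 4701 CPM, and their part in these directions was not tested. Ccl2 in ASC1-like cells ran at 214 CPM at RT and 2582 in the cold in WT, and at 291 and 3132 CPM in KO. Cxcl10 ran at 67.1 and 412 CPM in WT and at 101 and 1388 CPM in KO. The cold values of both ligands were higher in the KO library, with no replicate to set beside this. Cluster 1 held 49.9% and 46.2% of ASC1-like cells at RT in WT and KO, against 2.6% and 5.6% in C57 mice. Within cluster 1, unlike in C57 mice, Ccl2 ran at 354 CPM at RT and 3121 in the cold in WT, and at 429 and 3780 CPM in KO. Cxcl10 ran there at 116 and 503 CPM in WT and at 192 and 1706 CPM in KO. Kit and day changed with temperature in these libraries.

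Some macrophage and dendritic calls went the other way in 1 or both genotypes of this line. Ccl12 in Mgl2 MAC2-like cells was 792 CPM at RT and 1372 in the cold in WT, and 504 and 1562 CPM in KO. Ccl5 in these cells was opposite in both too, with 31.1 and 50.2 CPM in WT and 30.4 and 115 CPM in KO. Ccl24 there was opposite in KO only (56.4 and 105 CPM, against 112 and 39.1 in WT). Cxcl10 was not lower in WT (86.4 and 87.1 CPM) but was in KO (124 and 90.7 CPM), and Cxcl9 was lower in both. Ccl5 in DEND1-like cells was 8.44 and 71.7 CPM in WT, also opposite. Ccl8 in Lyve1 MAC2-like cells was 651 CPM at RT and 462 in the cold in WT and 941 and 1645 in KO, so that only WT was opposite to the C57 mice. Cxcl9 in MAC3-like cells was 1.65 and 14.3 CPM in WT and 0 and 29.3 CPM in KO. Ccl17 in DEND1-like cells, by contrast, was 431 CPM at RT (20 cells) and 19.3 in the cold in WT, the direction of the C57 mice.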

How the data were processed

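Single-cell RNA sequencing (10x Chromium, 3′ ends) was done on Lin- and Lin+ cells of iBAT. As deposited by the authors, values are estimated counts: UMIs per gene and cell from Cell Ranger 3.0.1 (mm10), corrected for free RNA with SoupX, so that most are not whole. Barcodes with under 10% mitochondrial UMIs and at most 15000 UMIs were kept (Lin+, at most 4000 genes; Lin-, at least 100 genes). Each fraction was clustered with scanpy 1.11.5 (2000 variable genes, 30 components, 30 neighbours, Leiden resolution 1), and clusters were named from fixed markers. Clusters and names were rebuilt here and may differ from those of the study. Doublets were kept, and the 6% of cells with the highest Scrublet score were left out as an alternative.

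UMIs were summed per library and class (at least 20 cells) and rounded. COLD against RT, CL against RT and COLD against CL were tested in C57 libraries with edgeR 4.0.16 (quasi-likelihood, TMM, filterByExpr, two-sided, Benjamini-Hochberg over all genes of a class, called at 0.05) in R 4.3.3, and the ASC1-like minus ASC2-like cold difference with the library as a block. Cells were not treated as replicates, so the per-cell rank test of the study was not used. The 42 genes, the other lists and the markers were chosen with earlier results of these data known. Named genes were those called in their highest tested class, up to 30, plus the leading class of each gene; the other calls were named after their values were seen. Alternatives were DESeq2 1.42.0, RLE factors, no filter, a replicate block, both lines with line as a covariate, leaving out each library, and, added after the data were seen, leaving out shared barcodes and fitting each ASC1-like cluster alone.

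The study's methods merge libraries of 1 replicate experiment, so that experiment numbers pair the C57 libraries across treatments. Deviations from group means correlated between same-numbered libraries at -0.059 to 0.499. The fits were tested on simulated data of 2 classes. The share of false calls was 8.9% (ASC1-like) and 8.1% (Mgl2 MAC2-like), above the threshold of 0.05. Of simulated 2-fold changes, 40.3% and 23.9% were recovered, and of 4-fold changes 80.3% in each. A pair that did not pass may therefore hold a true change. Means of the libraries and ranges cover all experiments with enough cells, both lines together. Promoters came from RefSeq (GRCm38.p6), where 32 of 42 genes matched.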

Additional observations from a re-analysis of the deposited data

Results flagged for a closer look

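In 5 genes the cold response differed between 2 stromal classes of the same libraries, by a test of the difference itself (edgeR, class by cold term with the library as a block, 6 C57 Lin- libraries). The difference of ASC1-like minus ASC2-like cells on the log2 scale was 1.88 for Ccl2 (adjusted p = 0.00247), 1.61 for Ccl7 (adjusted p = 0.00877), 2.36 for Cxcl2 (adjusted p = 0.0063), 1.86 for Cxcl10 (adjusted p = 0.00713) and 2.7 for Cxcl13 (adjusted p = 0.047). Of all genes tested, 5.31% passed the same test. Both ligands of Ccr2 in this group, Ccl2 and Ccl7, lay above the ASC2-like change, while Ccl8, Ccl9, Cxcl9 and Cx3cl1, which also rose in ASC1-like cells, did not pass. The share of cluster 1 in ASC1-like cells moved beside these values, from 2.6% and 5.6% at RT to 88.4% and 92.2% in the cold, and its part in the difference was not tested.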

How the results depend on the processing

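The 57 cold calls in classes became 104 with both lines, 164 with no filter and 92 with the replicate block, and 24 to 100 when 1 library was left out. The 19 CL calls became 43 with DESeq2, 137 with no filter and 48 with the replicate block, and 11 to 97 without 1 library. The 16 calls of COLD against CL became 37 with DESeq2, 166 with no filter and 59 with the replicate block, and 23 to 55 without 1 library. In whole fractions the 6 cold calls became 31 with both lines, 29 with DESeq2, 18 with no filter and 17 with the replicate block (0 to 38 without 1 library), and the 0 CL calls became 18 with DESeq2 and 12 with no filter (0 to 24). The 5 ASC1-like against ASC2-like differences became 8 with no filter, 0 with no library block and 3 to 5 without 1 library. The causes were not tested. Fitted on their own in C57 mice, the ASC1-like clusters turned the cold log2 fold change of Ccl2 to -0.39 (cluster 1) and -0.09 (cluster 4), of Cxcl9 to -0.74 and -0.22, and of Cxcl10 to -0.78 in cluster 1.

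RLE factors and leaving out shared barcodes or doublet-like cells kept these counts within 1.5 times of the values given, although RLE factors ended 4 of 103 single calls, and 8 were kept under every alternative run for the whole class. The replicate block ended no other of the calls given than those of Cxcl9 in ASC1-like and Ccl8 in nonclassical monocyte-like cells. In classes it made 92 calls of COLD against RT, 48 of CL against RT and 59 of COLD against CL. Of these, 56, 18 and 16 were among the calls given, so that pairs said not to pass may pass with the block. A group left with 1 library was assumed to vary like the others. Intervals and limits cover counting error only, and depth limits genes at a few UMIs per class.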
